A study of Mus musculus with 15 samples.

Results

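Cytip, Lipn, Abca9, Slc37a2, Srpk3, Chst10, Inafm1 and Myadml2 are 8 mouse genes whose signal fell in microglia exposed to lipopolysaccharide with interferon-γ (LPS/IFN-γ), and the question here was what the same genes did with IL-4 and with TGF-β. They were chosen by their low log2 changes with LPS/IFN-γ against untreated cells on these arrays, so those values describe how they were picked and carry no test. Every probe annotated to 1 of the 8 genes in the deposited signal table was taken, which gave 15 of 45281 probes. Of these, 12 were above the array's negative controls on at least 3 of 15 arrays, as were 15434 probes in all. The other 3 probes, Lipn ILMN_1257980, Abca9 ILMN_1257283 and Chst10 ILMN_2567380, were above background on 0 of 15 arrays and were not tested.

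The cells were microglia differentiated in culture from C57BL/6-ATCC embryonic stem cells (called ESdM in the labels) and grown in N2 medium, as a model of the resident macrophages of the brain. They were left untreated (n = 6 arrays) or exposed for 24 h to IL-4 at 100 U/ml, to TGFb (TGF-β) at 50 ng/ml, or to LPS at 500 ng/ml together with IFNg (IFN-γ) at 20 ng/ml (n = 3 arrays each). Biotin-labelled RNA was measured on Illumina mouse whole-genome bead arrays on 3 chips, each of which held 1 array of every stimulus and 1, 3 or 2 untreated arrays. Nothing in the labels says that numbered arrays stem from separate cultures, so the p-values speak only of the spread among these arrays and that spread may be technical.

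The arrays had 13601 to 14789 probes above background each. LPS/IFN-γ replicate 3 stood apart, with 296 probes at least 2-fold away from its group's median against 2 to 134 on each of the other arrays, and results that rest on it are given with and without it. Of 12 microglial and macrophage markers, 10 had a probe, and 6 of those (Aif1, Csf1r, Spi1, Trem2, Tyrobp and Sall1) were above background on every array, whereas P2ry12 was above background on none and Cx3cr1 and Tmem119 on 3 each. The markers' summed signal was 11990 to 13739 in untreated cells, 11978 to 13573 with IL-4, 15216 to 16554 with TGF-β and 8544 to 9292 with LPS/IFN-γ, and its part in the results below was not tested. In such bulk RNA, fewer cells of a type and less RNA per cell cannot be told apart. All 16 measured markers of neurons, oligodendrocytes, fibroblasts, dendritic cells and T cells were at background on all arrays. Of 4 astrocyte markers, Slc1a2 was above background on 15 arrays and Aldh1l1 on 9, but Gfap and Aqp4 on 0. Of 4 stem cell markers, Pou5f1 was above background on 4 arrays, and Nanog, Sox2 and Zfp42 on 0. Among check genes of the stimuli, Arg1 rose by 3.46 ± 0.08 (log2, SE) with IL-4 (adjusted p = 1.3e-12), and Gbp2 rose by 9.73 ± 0.13 with LPS/IFN-γ (adjusted p = 1.5e-16). Mrc1 (0.90) and Cish (3.56) also rose with IL-4, and Nos2 (4.17) and Tnf (4.12) with LPS/IFN-γ. Not all were specific: Cish also rose by 2.75 with LPS/IFN-γ, Gbp2 by 0.63 with IL-4 and Tnf by 0.70 with TGF-β. The 3 check genes for TGF-β had no probe that could be tested.

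Macrophages and microglia change programme with the signal they receive. LPS, which acts through Toll-like receptors, and IFN-γ drive an inflammatory state. IL-4 acts through STAT6, and TGF-β through SMAD proteins, a pathway that helps to keep microglia in their resting state. The 8 genes belong to no common pathway. Cytip encodes a scaffold protein that binds cytohesins and lowers integrin-mediated adhesion of leukocytes. Lipn is a member of the acid lipase family, known in human skin. Abca9 is an ABC transporter of the A subfamily. Slc37a2 encodes a sugar phosphate exchanger of the endoplasmic reticulum that is abundant in macrophages. Srpk3 is a kinase of splicing factors best known from muscle, where it is a target of MEF2 in the mouse. Chst10 makes the sulfated HNK-1 carbohydrate. Inafm1 encodes a small protein with the InaF motif, named after a fly protein, and Myadml2 is a relative of the myeloid-associated differentiation marker.

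The 250 bases before each gene's start were read from RefSeq (GRCm38.p6), and all 8 genes matched. They were searched on both strands for 11 motifs, and the stretches with AP-1, SMAD or MEF2 matches are shown because these factors serve signalling or, for MEF2, are known to control the gene. An AP-1 match (TGANTCA) was found in the windows of Lipn and Slc37a2, and in 6.75% of all 32851 windows of that length. Lipn also held CAGACA, the SMAD box, which 17.1% of windows hold. Srpk3 held a MEF2 match, present in 2.92% of windows, that overlapped a TATAAA match. For Cytip, Lipn and Srpk3 a longer RefSeq model starts upstream of the window. For Lipn and Srpk3 only the stretch with the AP-1, SMAD or MEF2 matches is therefore printed. A further TATAAA match of Srpk3, at -31 to -26 from the start, lies outside the printed stretch. The capitals mark the motif matches.
Slc37a2, chr9:37255739-37255988, minus strand: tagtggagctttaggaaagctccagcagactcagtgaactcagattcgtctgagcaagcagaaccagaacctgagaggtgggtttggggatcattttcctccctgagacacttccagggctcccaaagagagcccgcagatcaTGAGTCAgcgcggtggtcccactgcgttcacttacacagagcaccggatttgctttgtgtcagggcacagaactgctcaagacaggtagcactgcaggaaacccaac
Lipn, chr19:34067187-34067216, plus strand: CAGACAggagctgcaaacatcagTGAGTCA
Srpk3, chrX:73774333-73774362, plus strand: ggaggCTATTTATAAAggcgagtgagatca
Matches to the STAT6 motif (TTC and GAA separated by any 4 bases), the SMAD repeat (GTCTAGAC), the PU.1 core (GAGGAAGT) and NF-kappaB (by name) were in none of the 8 windows and in 5.85%, 0.167%, 2.44% and 3.9% of all windows. TATAAA (12.4% of windows) was also present in Myadml2, and CCAAT (33.8%) in Chst10. CACGTG and TGACGTCA were in 0 of the 8 windows, against 6.02% and 1.55% of all.

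With LPS/IFN-γ, the fitted change of 9 of the 12 tested probes was at least 2-fold lower than in untreated cells, against 2.79% of all 15434 probes, and 10 lay below every untreated array, against 26.3%; the choice of genes fixes both counts. Levels are normalized log2 signals throughout, and changes are log2 differences of group means with their standard error. Among all probes ranked from the lowest change, Cytip ILMN_1251748 was 2nd at -3.58 ± 0.18 and Srpk3 ILMN_2684515, above background on 1 of its 3 LPS/IFN-γ arrays, was 3rd at -3.02 ± 0.16. A pair of Abca9 probes was at background on all 3 LPS/IFN-γ arrays and has only a bound: ILMN_1253984 was at least 4.50-fold lower than untreated, and ILMN_2699880, 1 of the 9 probes counted above, at least 1.07-fold. Chst10 ILMN_2595863 followed at rank 7 with -2.61 ± 0.07, Inafm1 ILMN_1253189 at rank 11 with -2.51 ± 0.08, Slc37a2 ILMN_1257444 at rank 16 with -2.33 ± 0.08, Myadml2 ILMN_1231340 at rank 17 with -2.30 ± 0.23 and Lipn ILMN_2944988 at rank 37 with -1.95 ± 0.11. Without background subtraction the same 8 changes were smaller, from -3.17 for Cytip to -0.94 for Lipn.

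Most of these genes were lowered without being switched off. The probes of Cytip, Slc37a2, Chst10, Inafm1 and Myadml2 stayed above background on all 3 arrays with LPS/IFN-γ, those of Lipn and Srpk3 on just 1, and the Abca9 probe on none. For Lipn, Srpk3 and Abca9 these arrays therefore cannot tell a low level from none. The levels of Cytip on the 3 LPS/IFN-γ arrays were 8.30, 7.87 and 9.11, and those of Myadml2 were 7.89, 7.81 and 6.46. In both genes replicate 3 was the array that differed from the other pair, and it was the highest for Cytip and the lowest for Myadml2. Without it the change was -3.92 for Cytip, -1.83 for Myadml2 and -2.74 for Srpk3.

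**Figure D1:**
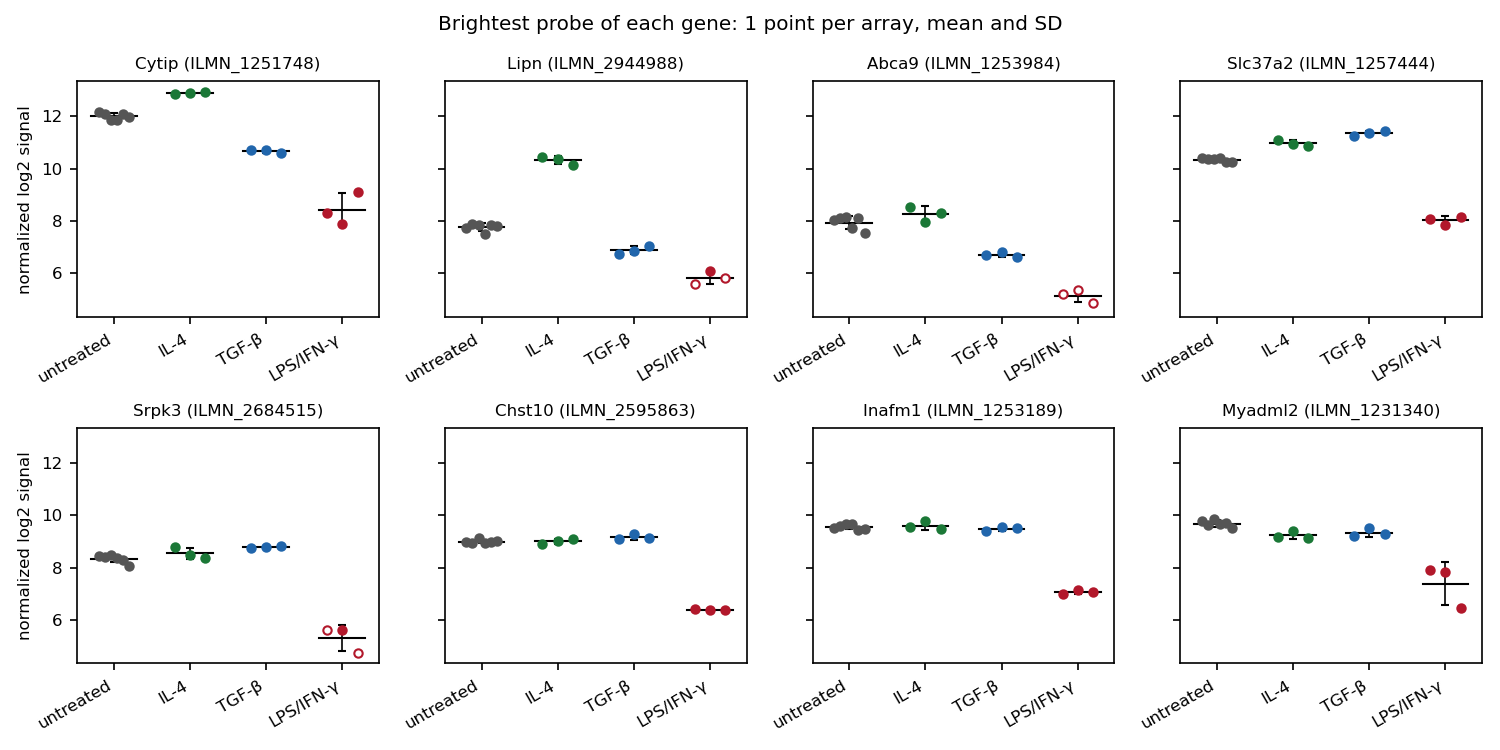
Normalized log2 signal of the brightest probe of each of the 8 genes on every array, by group (untreated n = 6, other groups n = 3). Filled points are above background and open points are not, and horizontal lines with bars give the mean and SD; all LPS/IFN-γ arrays lie below the untreated arrays for each gene, while IL-4 and TGF-β arrays part in opposite directions for Lipn and Cytip.

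With IL-4, 5 of the 12 probes rose and 0 fell (limma, Benjamini-Hochberg adjusted p under 0.05 over 15434 probes). Over all probes 4.61% rose, 4.81% fell and 9.41% were called in either direction. The 5 probes belong to 3 genes: both Lipn probes, the Cytip probe and both Slc37a2 probes. Of the other 5 genes, Abca9, Srpk3, Chst10, Inafm1 and Myadml2, no probe was called. The IL-4 arrays lay above all untreated arrays for 5 probes and below them for 1, that of Myadml2, against 7.94% and 10.3% of all probes (18.2% in either direction). The median change of the 12 probes was 0.27, against -0.02 over all probes. The untreated arrays in this comparison, and in the one of TGF-β with untreated, are the ones against which the genes were chosen. The background filter bears on these counts too, since Lipn ILMN_2524545 passed through its 3 IL-4 arrays and 1 untreated array, and Slc37a2 ILMN_2751120 through 1 IL-4 and 2 TGF-β arrays.

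With TGF-β, 3 of the 12 probes rose and 4 fell, against 15.8% and 17.7% of all probes (33.5% in either direction). Slc37a2 (both probes) and Srpk3 rose, whereas Cytip, Abca9 (2 of 3 tested probes) and Lipn (1 of 2) fell. The median change was -0.33, or -0.22 with the brightest probe of each gene, against -0.02 over all probes. The probes of Chst10, Inafm1 and Myadml2 were not called. The TGF-β arrays lay above all untreated arrays for 3 probes and below them for 4, against 16.3% and 18.1% of all probes (34.3% in either direction). Slc37a2 ILMN_2751120, counted among the probes that rose, passed the background filter only through 2 TGF-β arrays and 1 IL-4 array, so it adds no independent support.

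The 2 stimuli were then compared directly, a difference of means that uses none of the arrays that chose the genes, although the spread in its test and the normalization come from all 15 arrays. In a fit of the 6 IL-4 and TGF-β arrays alone, added after seeing the data, the same 6 of the 12 probes were called. Of the 12 probes, 5 were called higher and 1 lower with IL-4 than with TGF-β, against 12.4% higher and 13.0% lower among all probes (25.4% in either direction). The 5 were the Cytip probe, both Lipn probes and 2 Abca9 probes, of which ILMN_2699880 was at background on all TGF-β arrays, and the 1 lower was Slc37a2 ILMN_1257444. Lipn ILMN_2524545 passed the background filter through its 3 IL-4 arrays and 1 untreated array, so its place among the 5 is no independent support. Probes that fell at least 2-fold with LPS/IFN-γ are a closer background: of 422 such probes of other genes, 26.3% were higher and 25.6% lower with IL-4 than with TGF-β (51.9% in either direction). The IL-4 arrays lay above all TGF-β arrays for 5 of the 12 probes and below them for 1, against 19.9% and 20.6% of all 15434 probes (40.5% in either direction). The median difference of the 12 probes was 0.27, but with the brightest probe of each of the 8 genes it was 0.01, as over all probes (0.01).

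**Figure D2:**
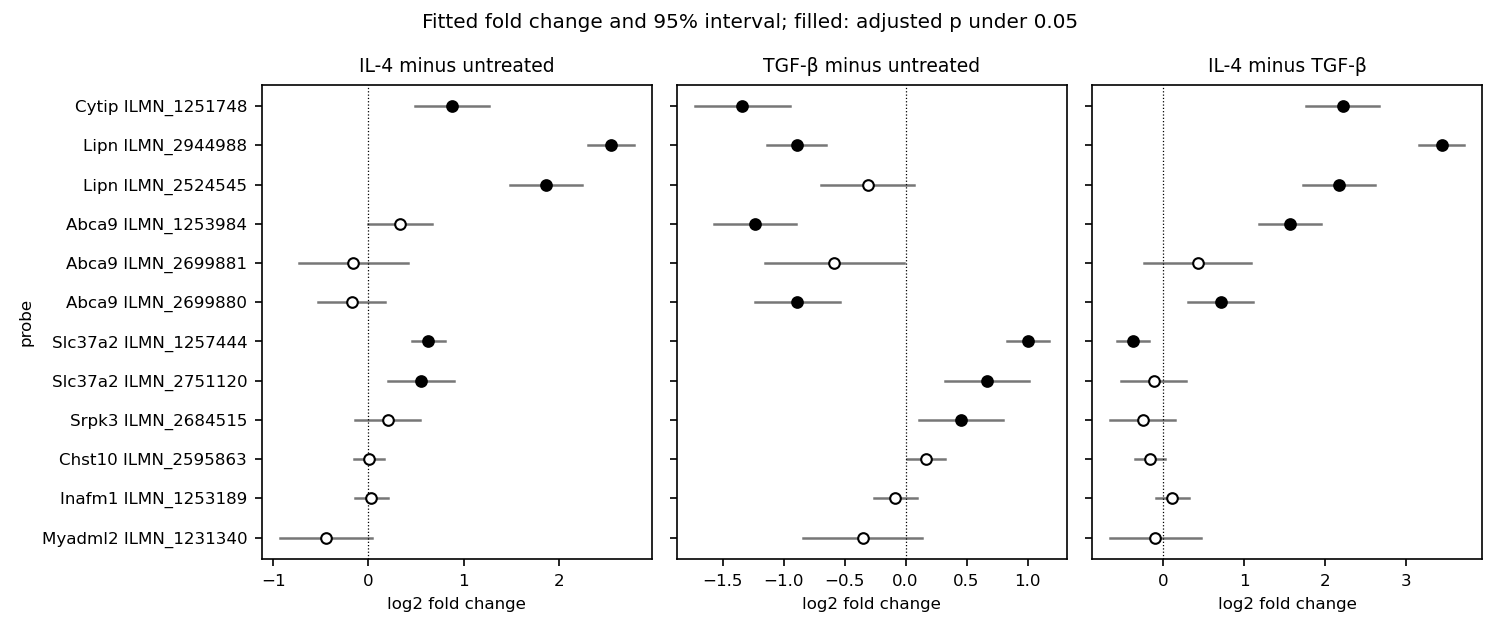
Log2 change of each of the 12 tested probes with IL-4 and with TGF-β against untreated, and of IL-4 against TGF-β, with 95% intervals from the fit over 15434 probes (filled where adjusted p is under 0.05). Changes of dim probes are shown as measured, without the background limit. Lipn ILMN_2944988 sits furthest to the right with IL-4 at 2.55, and Cytip and Abca9 ILMN_1253984 sit furthest to the left with TGF-β at -1.34 and -1.23.

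Lipn, the acid lipase, rose with IL-4 and fell with TGF-β. In untreated cells the level of ILMN_2944988 ran from 7.51 to 7.88 with a median of 7.82. On the IL-4 arrays it was 10.45, 10.36 and 10.15, on the TGF-β arrays 6.74, 6.85 and 7.05, and on the LPS/IFN-γ arrays 5.60, 6.07 and 5.80. The 4 groups did not overlap at any point, in the order IL-4, untreated, TGF-β, LPS/IFN-γ. Lipn rose by 2.55 ± 0.11 with IL-4 (5.84-fold, limma adjusted p = 3.9e-09), which placed it 9th from the top of 15434 probes. It fell by 0.89 ± 0.11 with TGF-β (1.86-fold, adjusted p = 3e-05). Between IL-4 and TGF-β the difference was 3.44 ± 0.13, or 10.8-fold (adjusted p = 6.1e-11), and within chips 1, 2 and 3 it was 3.71, 3.51 and 3.10.

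The second Lipn probe that could be tested, ILMN_2524545, is designed on the same transcript record, NM_027340. It was above background on 3 of 3 IL-4 arrays, at 7.46, 7.63 and 7.54, on 1 of 6 untreated arrays, and on 0 of 3 TGF-β and LPS/IFN-γ arrays. Untreated levels ran from 5.50 to 6.05 with a median of 5.62, and TGF-β levels were 5.20, 5.76 and 5.14. All IL-4 arrays were therefore high, and the untreated and TGF-β arrays overlapped. The rise with IL-4 was 1.87 ± 0.18 (adjusted p = 1.1e-05), and IL-4 stood at least 3.60-fold above TGF-β (adjusted p = 2.1e-06). Since the probe passed the background filter through the IL-4 arrays, where it was high, these tests are no independent support. With TGF-β against untreated the change was -0.31 ± 0.18 (adjusted p = 0.2, 95% interval -0.69 to 0.07), near background in both groups, so the fall seen by the brighter probe could not be checked with this one.

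Cytip, the cytohesin-binding scaffold, was also split by the stimuli. Untreated levels ran from 11.85 to 12.19 with a median of 12.03. With IL-4 they were 12.84, 12.90 and 12.92, and with TGF-β 10.73, 10.70 and 10.58. Every IL-4 array was above and every TGF-β array below all untreated arrays, and the LPS/IFN-γ arrays were lower still. Cytip rose by 0.88 ± 0.18 with IL-4 (1.84-fold, adjusted p = 0.0076). It fell by 1.34 ± 0.18 with TGF-β (2.53-fold, adjusted p = 5.4e-05), the 36th lowest change of all probes. IL-4 and TGF-β differed by 2.22 ± 0.21 (4.66-fold, adjusted p = 2e-06). The standard error rests in part on the LPS/IFN-γ group, whose arrays spread by an SD of 0.63 against 0.04 to 0.14 elsewhere. In a fit of the other 12 arrays alone, added after seeing the data, the adjusted p was 2.7e-05 for IL-4 and 1.2e-07 for TGF-β. Without LPS/IFN-γ replicate 3 it was 6.2e-05 and 2.3e-07. With a block for replicate number, however, the IL-4 rise was not called (0.84, adjusted p = 0.091), while the TGF-β fall was (adjusted p = 0.0031). Only the untreated group has replicates 4, 5 and 6, so that block leaves these arrays out of every comparison with untreated. The effect of pairing alone was not tested.

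Abca9, the ABC transporter, fell with TGF-β and was not called with IL-4. For ILMN_1253984 untreated levels ran from 7.53 to 8.14 with a median of 8.07, TGF-β arrays read 6.69, 6.82 and 6.62, and IL-4 arrays read 8.54, 7.97 and 8.31. The TGF-β arrays were all below untreated, and the IL-4 arrays overlapped with untreated. The fall with TGF-β was -1.23 ± 0.16 (2.35-fold lower, adjusted p = 2.9e-05). With IL-4 the change was 0.33 ± 0.16 (adjusted p = 0.21), and within chips it was 0.51, -0.03 and 0.49. IL-4 was higher than TGF-β by 1.56 ± 0.18, or 2.96-fold (adjusted p = 1.5e-05).

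The other Abca9 probes were dim. ILMN_2699880, on the same record NM_147220, was above background on 5 of 6 untreated arrays, 1 of 3 IL-4 arrays and 0 of 3 TGF-β and LPS/IFN-γ arrays. It fell with TGF-β to at least 1.13-fold below untreated (adjusted p = 0.00069). It was called higher with IL-4 than with TGF-β (adjusted p = 0.011), but that difference has no fold, since the IL-4 mean was not clear of the background limit. That last call rested on replicate 1 of either group, since without the IL-4 or the TGF-β array of that number the adjusted p was 0.061 and 0.05. ILMN_2699881 was above background on 4 of 6 untreated arrays and was called in none of these comparisons. Its change with TGF-β was -0.58 ± 0.27 (adjusted p = 0.11) and with IL-4 -0.16 ± 0.27 (adjusted p = 0.77, interval -0.73 to 0.41). Without LPS/IFN-γ replicate 3 the TGF-β change was just called (adjusted p = 0.049), and in the fit of the 12 arrays without LPS/IFN-γ it was not (adjusted p = 0.061). The 3 probes had the same sign with TGF-β, but with IL-4 the brightest one was positive and both dim ones were negative, all without a call.

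**Figure D3:**
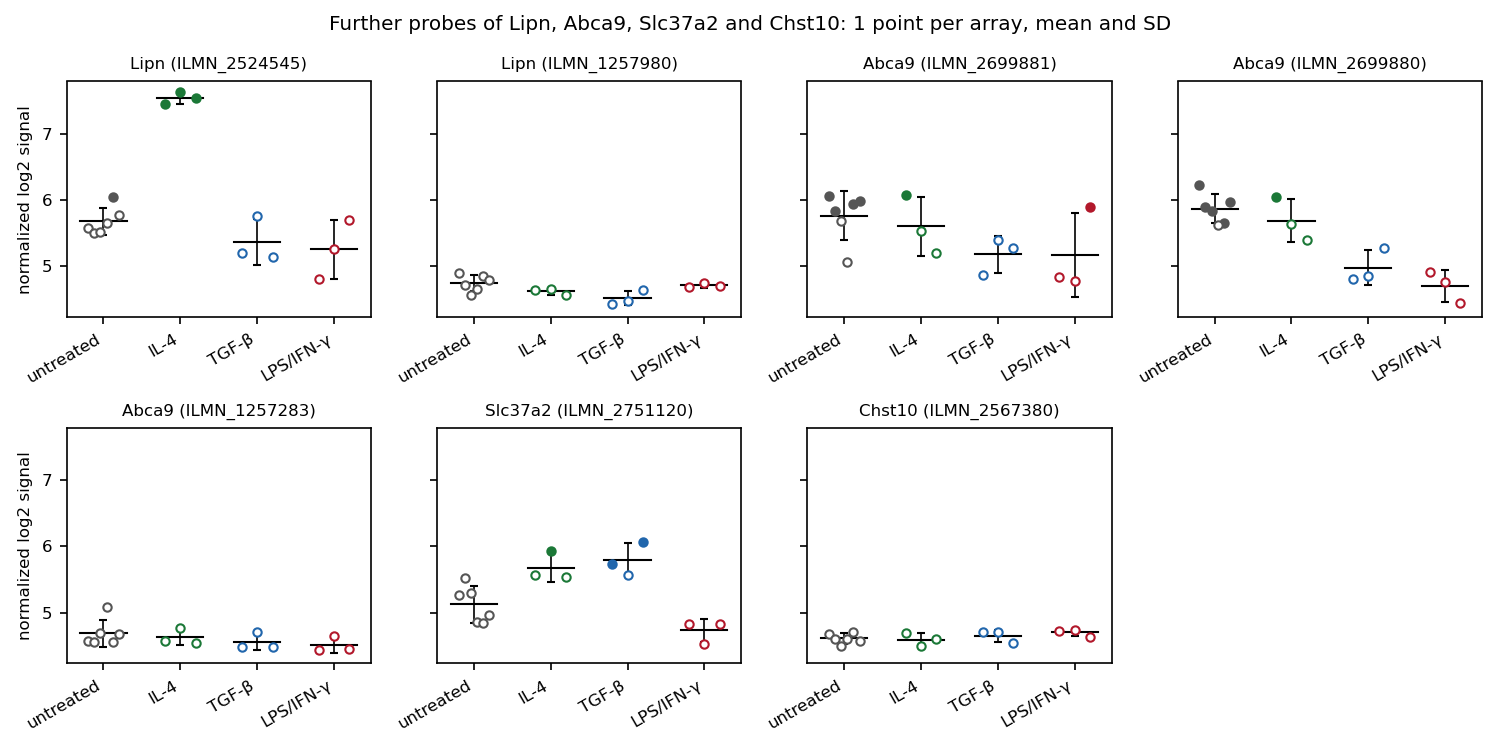
Normalized log2 signal of the other 7 probes of Lipn, Abca9, Slc37a2 and Chst10 on every array, by group; filled points are above background and open points are not, with mean and SD. The IL-4 arrays of Lipn ILMN_2524545, at 7.46 to 7.63, lie above all other points, and 3 probes are open on all 15 arrays.

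Slc37a2, the sugar phosphate exchanger, went the other way from Lipn with TGF-β. ILMN_1257444 ran from 10.24 to 10.42 in untreated cells with a median of 10.38. It read 11.09, 10.96 and 10.88 with IL-4, 11.27, 11.36 and 11.43 with TGF-β, and 8.06, 7.85 and 8.16 with LPS/IFN-γ. No 2 groups overlapped, and TGF-β was the highest. The rise was 0.63 ± 0.08 with IL-4 (1.55-fold, adjusted p = 2e-04) and 1.00 ± 0.08 with TGF-β (2.01-fold, adjusted p = 3.3e-07). The difference between these stimuli was -0.37 ± 0.09 (adjusted p = 0.0081), and with arrays scaled to a common median it was -0.23 (adjusted p = 0.42).

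The other Slc37a2 probe, ILMN_2751120, is designed on record NM_020258, a different record from that of ILMN_1257444. ILMN_2751120 was above background on 0 of 6 untreated, 1 of 3 IL-4, 2 of 3 TGF-β and 0 of 3 LPS/IFN-γ arrays. It was called higher with TGF-β, at least 1.08-fold (measured change 0.67 ± 0.16, adjusted p = 0.0048). The probe passed the background filter only through IL-4 and TGF-β arrays, where it was high, so its tests against untreated are no independent support. With a block for replicate number the TGF-β call was lost (0.43, adjusted p = 0.086). The call with IL-4 (0.55 ± 0.16, adjusted p = 0.043) has no fold, since the IL-4 mean was not clear of the background limit. It was lost in 8 of 15 fits that each left out 1 array, with adjusted p up to 0.17, and it was kept in only 2 of 10 other alternatives, with adjusted p up to 0.34.

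Srpk3, the splicing factor kinase, was higher with TGF-β by a small margin. Untreated levels ran from 8.07 to 8.46, IL-4 levels were 8.77, 8.48 and 8.38, and TGF-β levels were 8.75, 8.80 and 8.83. All TGF-β arrays lay above the untreated ones, while the IL-4 arrays overlapped with them. The rise with TGF-β was 0.46 ± 0.16 (1.37-fold, adjusted p = 0.041), and with IL-4 the change was 0.20 ± 0.16 (adjusted p = 0.47, interval -0.14 to 0.55). IL-4 and TGF-β were not called different, at -0.25 ± 0.19 (adjusted p = 0.36, interval -0.65 to 0.14). The TGF-β call was lost when any 1 of the TGF-β arrays or untreated replicate 2, 4, 5 or 6 was left out (adjusted p up to 0.11). It was also lost with arrays scaled to a common median (0.23, adjusted p = 0.41). The same held with a block for replicate number (0.36, adjusted p = 0.18) and without the filter on dim probes (adjusted p = 0.095). In the fit of 12 arrays without LPS/IFN-γ, added after seeing the data, the change had the same sign and a lower p (adjusted p = 0.0035).

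Chst10 and Inafm1, which fell by over 2 log2 units with LPS/IFN-γ, were called with neither of the other stimuli in the main fit. In a fit of the authors' own log2 values, Chst10 was called higher with TGF-β (0.15, limma adjusted p = 0.02). Chst10 ILMN_2595863 ran from 8.93 to 9.12 in untreated cells and read 8.88, 9.02 and 9.10 with IL-4, 9.07, 9.29 and 9.11 with TGF-β and 6.41, 6.36 and 6.38 with LPS/IFN-γ. Its change was 0.01 ± 0.07 with IL-4 (interval -0.15 to 0.16, adjusted p = 0.96) and 0.17 ± 0.07 with TGF-β (interval 0.01 to 0.32, adjusted p = 0.093). Inafm1 ILMN_1253189 ran from 9.45 to 9.68 untreated and read 9.56, 9.77 and 9.47 with IL-4, 9.38, 9.55 and 9.52 with TGF-β and 6.97, 7.13 and 7.06 with LPS/IFN-γ. In both genes the untreated, IL-4 and TGF-β arrays overlapped and the LPS/IFN-γ arrays lay apart from them. The change of Inafm1 was 0.03 ± 0.08 with IL-4 (interval -0.14 to 0.21, adjusted p = 0.85) and -0.08 ± 0.08 with TGF-β (interval -0.26 to 0.09, adjusted p = 0.47). None of these 4 intervals reached past 0.32 in either direction.

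Myadml2 was the 1 gene whose brightest probe had a mean below untreated with every stimulus, without a call for IL-4 or TGF-β. ILMN_1231340 ran from 9.51 to 9.85 untreated and read 9.19, 9.39 and 9.14 with IL-4 and 9.21, 9.51 and 9.27 with TGF-β. All IL-4 arrays were below the untreated ones, and 2 of 3 TGF-β arrays were, the other one being level with the lowest untreated array. The change was -0.45 ± 0.23 with IL-4 (adjusted p = 0.24) and -0.35 ± 0.23 with TGF-β (adjusted p = 0.26). The standard error again holds LPS/IFN-γ replicate 3: without that array Myadml2 passed the test with both, at adjusted p = 0.007 for IL-4 and 0.0084 for TGF-β. IL-4 and TGF-β differed by -0.09 ± 0.26 (adjusted p = 0.84, interval -0.66 to 0.47).

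The relatives and partners of the 8 genes were counted in the same fit, 1 probe per gene. With IL-4, 0 of 31 tested relatives rose and 0 fell, against 4.61% and 4.81% of all probes. With TGF-β, 8 rose and 3 fell, against 15.8% and 17.7% of all probes, with a median of 0.04. Among the partners of Cytip, Cyth3 rose by 0.38 ± 0.08 (adjusted p = 0.0015) and Cyth4 by 0.56 ± 0.12, both of them cytohesins that activate ARF GTPases. The integrin chain Itgb2 changed by -0.51 ± 0.14 (adjusted p = 0.011), in the same direction as Cytip. Of 6 listed acid lipases, 5 were on the array, and Lipa, the lysosomal lipase, was the 1 tested besides Lipn, at 0.10 with IL-4 and 0.04 with TGF-β, not called.

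Among ABCA transporters, Abca6 was called lower with TGF-β, but it was at background on all TGF-β, IL-4 and LPS/IFN-γ arrays and on 2 of 6 untreated ones, so it has no fold. Abca2 rose by 0.40 ± 0.12, Abca3 by 0.29 ± 0.08 and Abca7 by 0.30 ± 0.08. Of the sulfotransferases, Chst3, which sulfates chondroitin, rose by 0.88 ± 0.14 and Chst11 by 0.42 ± 0.13, while Chst10 was not called. Clk4, a kinase of splicing factors like Srpk3, rose by 0.36 ± 0.13 (adjusted p = 0.045), and Myadm changed by -0.32 ± 0.08. The 3 tested relatives of Slc37a2 and Inafm2 were not called. With LPS/IFN-γ, where 19.9% of all probes rose and 31.0% fell by the same test, 3 of the 31 relatives rose and 11 fell, among them Chst3 at -1.98.

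**Figure D4:**
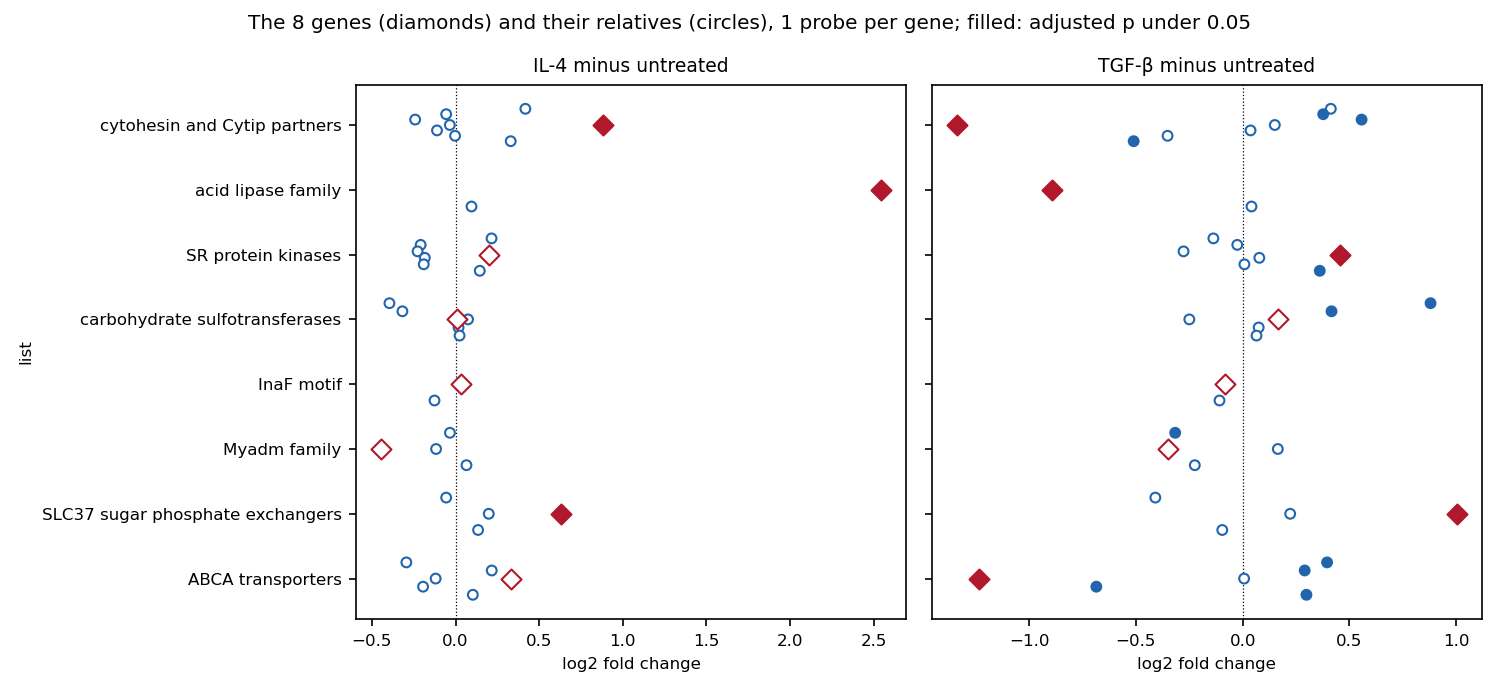
Log2 change of the 8 genes (diamonds) and of the tested members of their families (circles) with IL-4 and with TGF-β against untreated, filled where adjusted p is under 0.05, as measured without the background limit. With IL-4 no circle is filled, and with TGF-β 11 are, 8 to the right of 0 and 3 to the left.

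Each gene's brightest probe was also set beside 13048 probes of other genes by Pearson correlation of log2 levels over the 12 arrays without LPS/IFN-γ, which share normalization and chips and fall into 3 groups, so that r mostly follows the group means. Lipn was most like Xdh (r = 0.990) and Ang2 (r = 0.987), and over all 15 arrays these values were 0.694 and 0.974. Cytip was most like Psmb10 (r = 0.989) and Clec7a (r = 0.988), but over 15 arrays r was -0.687 for Psmb10 and 0.543 for Clec7a. Ang2 thus followed Lipn in all 4 groups, while Psmb10 ran against Cytip once LPS/IFN-γ was added. Abca9 was most like Snhg10 (r = 0.971) and Nup62 (r = 0.967), neither of which kept the likeness over 15 arrays (r = -0.354 and -0.016). Slc37a2 was most like Afdn and Ang (r = 0.969 each, and 0.870 and 0.876 over 15 arrays). Srpk3 was most like Wls (r = 0.960) and Lima1 (r = 0.928), with 0.747 and 0.810 over 15 arrays. The best values for the genes without a call in the main fit were 0.907 for Chst10 with Tnrc6c, 0.856 for Inafm1 with Pi4ka and 0.924 for Myadml2 with Ssx2ip. Over 15 arrays these values were 0.846, 0.255 and -0.107. Every pair was picked for its high r among 13048 probes, so the size of r is no test of likeness.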

How the data were processed

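The deposited table used here gives linear intensity per probe (45281 probes, 15 arrays) without background subtraction. Per the file headers, a detection p-value accompanies each signal. A table of log2 values by the authors, for which the submitters' processing notes name Partek (version and steps not given in the sources used here), served as an alternative only. Probe names come from the platform annotation, updated through RefSeq: 34885 probes had 1 gene symbol and 10396 had several or none.

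Signals were background-corrected with neqc (negative controls inferred from the detection p, offset 16), quantile-normalized and put on the log2 scale (R 4.3.3, limma 3.58.1). Kept were 15434 probes whose detection p was below 0.01 on 3 arrays or more. One model with 4 group means was fitted per probe to all 15 arrays (limma lmFit and eBayes, two-sided), with p-values adjusted by Benjamini-Hochberg over all kept probes and called at 0.05. The median standard error against untreated was 0.113, and the number of arrays limits the precision. A fold is a lower bound where a group had no array above background; it then sets that group at each array's lowest signal above background (log2 5.55 to 5.90) or the probe's own level, if higher. The fit was tested on simulated data.

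The 8 genes, the family lists and the marker lists were chosen with earlier results of these data known, so no count over them is independent evidence. All probes of the 8 genes are named, relatives if called with IL-4 or TGF-β, and for likeness the 2 most correlated genes per gene without predicted models. Alternatives covered background correction, scaling, the authors' table, the filter, the probe per gene, blocks for chip or replicate, array weights, the variance prior and leaving out each array; fits of the 12 arrays without LPS/IFN-γ and of the 6 IL-4 and TGF-β arrays were added after seeing the data.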

Additional observations from a re-analysis of the deposited data

Results flagged for a closer look

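Among the groups of 6 untreated arrays, 1 probe of the 8 genes had an array that lay far from the others. For Chst10 ILMN_2595863, untreated replicate 3 was the highest at 9.12, and its gap to the next array took 0.635 of the group's whole range, past Dixon's 95% critical value for 6 samples. Chance gives such a value in about 1 in 20 groups.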

How the results depend on the processing

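The Lipn ILMN_2944988 calls with both stimuli, the Cytip and Abca9 ILMN_1253984 falls with TGF-β and the Slc37a2 ILMN_1257444 rises kept direction and call in every alternative in which the probe could be tested. Leaving out 1 array each gave 4 to 6 called probes of the 8 genes for IL-4, 6 to 9 for TGF-β and 5 to 6 for IL-4 against TGF-β. With probes above background on all 15 arrays only, 5 probes of the 8 genes could be tested, and 2, 2 and 2 were called. With 1 probe per gene, 3 were called with IL-4. Deviations from the group means correlated at -0.24 to 0.34 (median 0.18, over 0.1 in 10 of 18) between arrays of the same replicate number. For other numbers the median was -0.050, with 12 of 63 over 0.1. Arrays of the same number were thus more alike in the median, though not in every pair. Stimulus arrays of the same number also shared a chip, so number and chip cannot be told apart among them. Grouped by chip, the medians were 0.066 for the same chip and -0.051 for other chips. The main fit did not pair the arrays, so any effect shared by arrays of the same number stayed within the spread that its p-values use. With the replicate block, 3 probes were called with IL-4 (577 of all probes instead of 1453), 5 with TGF-β and 6 between them. It lost Cytip (adjusted p = 0.091) and Slc37a2 ILMN_2751120 (0.34) with IL-4, and Srpk3 (0.18) and Slc37a2 ILMN_2751120 (0.086) with TGF-β. Against untreated, this block compares with untreated replicates 1, 2 and 3 only, so the effect of pairing alone was not tested.

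Some alternatives added calls. In the authors' table these were Chst10 with TGF-β (limma adjusted p = 0.02), Myadml2 with IL-4 (0.02) and TGF-β (0.031), and Srpk3 for IL-4 against TGF-β (0.032). Array weights added Lipn ILMN_2524545 (0.036) and Myadml2 (0.026) with TGF-β. Abca9 ILMN_2699881 was called with TGF-β under median scaling (0.047) and without untreated replicate 4 (0.035). Changes of sign came only in values without a call in the main fit. Under median scaling the median change of all probes was -0.11 (IL-4), -0.20 (TGF-β) and 0.11 (IL-4 against TGF-β). In the main fit these medians were -0.02, -0.02 and 0.01. With that scaling Chst10 was -0.11 with IL-4 and -0.049 with TGF-β, Inafm1 was -0.086 with IL-4, and Myadml2 was 0.0043 for IL-4 against TGF-β. Under the replicate block Chst10 was -0.010 and Inafm1 -0.0028 with IL-4. Leaving out single arrays gave -0.041 to 0.066 for Chst10, -0.052 to 0.097 for Inafm1 and -0.39 to 0.046 for Abca9 ILMN_2699881 with IL-4, and -0.24 to 0.024 for Slc37a2 ILMN_2751120 between IL-4 and TGF-β. The cause was not tested.

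Over all probes, IL-4 gave 441 calls under median scaling, 752 and 705 without IL-4 replicate 1 or 3, and 2694 in the authors' table, and IL-4 against TGF-β gave 1866 under median scaling instead of 3921. The share of calls that were higher moved from 48.9% to 61.4% (cyclic loess) and 59.3% (replicate block) for IL-4, from 47.2% to 18.6% (median scaling) for TGF-β, and from 48.7% to 62.5% (median scaling) between them. Fold sizes of dim probes depend on background subtraction: Lipn ILMN_2524545 with IL-4 ranged from 0.84 to 2.01 and Abca9 ILMN_1253984 with TGF-β from -1.41 to -0.71.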
